A study of Mus musculus with 2 samples.

Results

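*Fos*, *Fosb*, *Jun*, *Junb*, *Jund*, *Egr1*, *Atf3*, *Ier2*, *Dusp1* and *Zfp36* are 10 immediate early genes that were looked up by symbol among the 18049 genes of the CITEseq expression data, and all 10 were listed. CITEseq reads mRNA and DNA-barcoded antibodies from the same single cells, and here it was applied to live MHCIIhi CD11c+ B220- cells sorted from the lymph nodes of B6 mice. The 1 naïve library came from unimmunized mice and the 1 papain library from mice injected with ovalbumin (OVA) and the protease papain, an adjuvant of type 2 responses, in the rear footpads 1 day earlier. The methods take the papain cells from popliteal nodes and the naïve cells from pooled skin-draining nodes, whereas the labels give skin-draining nodes as the tissue of both libraries and name popliteal ones in their protocol, so immunization and node site cannot be told apart. How many mice were pooled in a library is not given in the sources used here. With 1 library per condition there is no replicate. No p-value is given, and every 95% interval in parentheses covers counting error only.

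Immediate early genes are transcribed within minutes of a signal reaching the cell, without new protein having to be made first, and their mRNAs are short-lived. The products of *Fos*, *Fosb*, *Jun*, *Junb* and *Jund* pair into AP-1 transcription factors, *Egr1* encodes a zinc finger factor, *Atf3* a stress-induced factor of the same leucine zipper kind as AP-1, and *Ier2* a small nuclear protein. *Dusp1* and *Zfp36* act as brakes: DUSP1 is a phosphatase that switches off MAP kinases, and ZFP36 (tristetraprolin) binds AU-rich elements and speeds the decay of mRNAs, many of them for cytokines. In dendritic cells (DCs) these genes are known to respond to microbial and inflammatory signals, and in many tissues also to the handling of live cells. The methods describe digestion of the nodes with collagenase D before sorting, and its part in the levels was not tested.

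RefSeq promoter windows were at hand for 8 of the 10 genes, on mouse assembly GRCm38.p6. The 250 bases before the start of 5 of them are shown, chosen because the 7 pairs of genes with the closest levels in single cells all lay among these 5. Each runs 5′ to 3′ on the strand of the gene. Capitals mark the letters TGACG, the core of a cAMP response element, on either strand, the full palindrome TGACGTCA, which holds TGACG on both strands, and in *Zfp36* a CArG box, the kind of element that serum response factor binds.
Fos: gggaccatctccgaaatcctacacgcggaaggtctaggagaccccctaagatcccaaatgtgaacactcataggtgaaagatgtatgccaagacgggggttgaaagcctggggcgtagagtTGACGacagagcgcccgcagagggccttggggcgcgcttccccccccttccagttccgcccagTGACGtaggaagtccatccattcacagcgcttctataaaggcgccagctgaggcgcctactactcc
Fosb: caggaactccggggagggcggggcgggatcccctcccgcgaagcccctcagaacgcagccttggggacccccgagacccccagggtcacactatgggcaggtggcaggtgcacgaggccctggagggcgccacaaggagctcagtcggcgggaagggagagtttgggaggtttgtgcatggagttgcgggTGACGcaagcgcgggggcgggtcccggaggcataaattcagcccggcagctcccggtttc
Junb: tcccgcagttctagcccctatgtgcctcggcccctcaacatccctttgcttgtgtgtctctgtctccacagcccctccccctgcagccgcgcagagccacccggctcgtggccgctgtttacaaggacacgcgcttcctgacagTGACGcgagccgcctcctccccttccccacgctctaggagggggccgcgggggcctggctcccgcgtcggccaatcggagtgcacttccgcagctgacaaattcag
Dusp1: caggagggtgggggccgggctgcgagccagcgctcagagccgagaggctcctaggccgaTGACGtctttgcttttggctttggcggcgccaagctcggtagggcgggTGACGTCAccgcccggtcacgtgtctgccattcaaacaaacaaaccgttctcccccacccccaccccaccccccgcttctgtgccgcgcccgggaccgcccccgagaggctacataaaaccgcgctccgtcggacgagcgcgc
Zfp36: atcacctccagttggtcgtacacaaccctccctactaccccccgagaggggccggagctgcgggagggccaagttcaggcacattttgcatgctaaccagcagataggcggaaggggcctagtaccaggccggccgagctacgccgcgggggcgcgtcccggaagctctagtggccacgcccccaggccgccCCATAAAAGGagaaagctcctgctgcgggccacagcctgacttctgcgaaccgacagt
These windows lie at chr12:85473640-85473889 on the plus strand for *Fos*, and on the minus strand at chr7:19310046-19310295 for *Fosb*, chr8:84978749-84978998 for *Junb*, chr17:26508473-26508722 for *Dusp1* and chr7:28379229-28379478 for *Zfp36*. In *Fos*, TGACG began 129 and 66 bases before the start, in *Fosb* 60 bases and in *Junb* 106 bases before it. The *Fosb* window is set on a start within the annotated gene, whose upstream end is at chr7:19310118. Its TGACG therefore lies inside the gene. *Dusp1* held TGACG 191 bases and TGACGTCA 143 bases before the start, and the CArG box of *Zfp36* began 58 bases before it. TGACG was found in 5 of the 8 windows (*Atf3* is the other one with it) and in 21.0% of 27025 windows of the same length, 1 for each gene. TGACGTCA was found in 1 of 8 and in 1.88% of all windows, a CArG box in 1 of 8 and in 1.57%, and CCGGAA, a core of ETS sites, in 1 of 8 (*Zfp36*) and in 15.2%. The AP-1 motif TGANTCA was found in 0 of 8 and in 7.93%. These counts, taken over windows that also take in the first 50 bases of the transcript, describe letters within the windows and not bound sites.

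Expression values were read for 3471 naïve and 7596 papain cells with a median of 13764 and 14738 UMIs (unique molecular identifiers, each standing for 1 captured mRNA). The authors' own classes, drawn from the antibodies, put 3042 naïve and 7306 papain cells into Langerhans cells (LCs), cDC1s and cDC2s that were low, intermediate (int) or high for CD301b. Levels are a gene's UMIs per 1000000 UMIs (CPM), from the UMIs of all cells of a group added up. The classes were checked against marker genes. *Cd207*, the gene of langerin, stood at 45.7 CPM in naïve and 58.9 CPM in papain LCs against 0.290 and 0.163 CPM in cDC2s, *Xcr1* at 16.9 and 9.44 CPM in cDC1s against 3.45 and 0.561 CPM in cDC2s, and *Ccr7*, the homing receptor of migratory DCs, at 1995 CPM or more in each of these groups. Of the 4 of 6 cDC1 markers that reached 10 CPM in the naïve library, 3 were past 1.5-fold higher in cDC1s than in cDC2s and *Cd8a* was lower (19.8 and 42.0 CPM). In papain cells 4 of 6 reached 10 CPM, and these 4, *Cd8a* included, were higher. *Mgl2*, which encodes CD301b, did not follow the antibody in both libraries: it stood at 15.2, 59.1 and 56.1 CPM in naïve CD301b-low, int and high cDC2s and at 0.831, 0.476 and 1.21 CPM in the papain ones, so the papain cDC2 classes rest on the antibody and not on this mRNA. Markers of other cell types were also found, and whether their mRNA was made by the DCs or came from other cells was not tested. The 4 T cell markers (*Cd3e*, *Trac*, *Cd3d*, *Trbc2*) summed to 9.55 to 146 CPM over the naïve classes, highest in cDC1s, and to 8.36 to 20.5 CPM over the papain classes. At least 1 UMI of *Cd3e* or *Trac* was held by 13.5% of the naïve cDC1s and by 2.97% to 7.26% of the cells of every other class. The 4 B cell markers summed to 12.7 to 62.5 CPM in naïve and 4.49 to 31.6 CPM in papain classes. The 3 NK cell markers summed to 1.32 to 11.3 CPM in naïve classes and at most 1.77 CPM in papain ones. The 4 macrophage and monocyte markers, of which *Lyz2* makes up most, summed to 566 to 685 CPM in naïve and 17.9 to 93.3 CPM in papain cDC2s. They summed to 36.3 and 48.7 CPM in naïve and papain LCs and to 113 and 11.1 CPM in naïve and papain cDC1s. The part of these cells and transcripts in the differences below was not tested, apart from the values given without cells that held *Cd3e* or *Trac*. The 2 libraries shared 2 cell barcodes.

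At 1 day after papain, all 10 genes had a lower level than in the naïve library over all classes (*Jund* not when cells with *Cd3e* or *Trac* were left out), and *Fos*, *Atf3* and *Zfp36* differed most. Over all cells with a class, *Fos* was at 797 CPM (789 to 805) in the naïve and 381 CPM (377 to 384) in the papain library, a log2 ratio of -1.07. *Atf3* was at 318 (313 to 323) and 168 CPM (166 to 170.4), a log2 ratio of -0.92. *Zfp36* was at 1407 (1397 to 1418) and 877 CPM (872 to 882), a log2 ratio of -0.68. These 3 of the 10 genes were at least 1.5-fold lower and 0 were at least 1.5-fold higher, where 8.30% of the 7363 genes that reached 10 CPM in either library were lower by as much and 7.96% higher, or 16.3% in either direction. The other 7 genes lay below 0 by less. *Fosb* had a log2 ratio of -0.50, *Jun* -0.50, *Junb* -0.35, *Egr1* -0.18, *Dusp1* -0.10, *Ier2* -0.08 and *Jund* -0.08. The median log2 ratio of the 10 genes was -0.42, beside 0.06 over all genes tested. The share of all genes that lay below 0 by any amount was not counted. In such sums, fewer expressing cells and less mRNA per cell cannot be told apart. The pooled ratios also carry the different class makeup of the libraries. With equal weight of the 5 classes, the log2 ratios of the 10 genes shifted by at most 0.34 and 0 changed sign. The same genes are therefore given class by class.

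**Figure D1:**
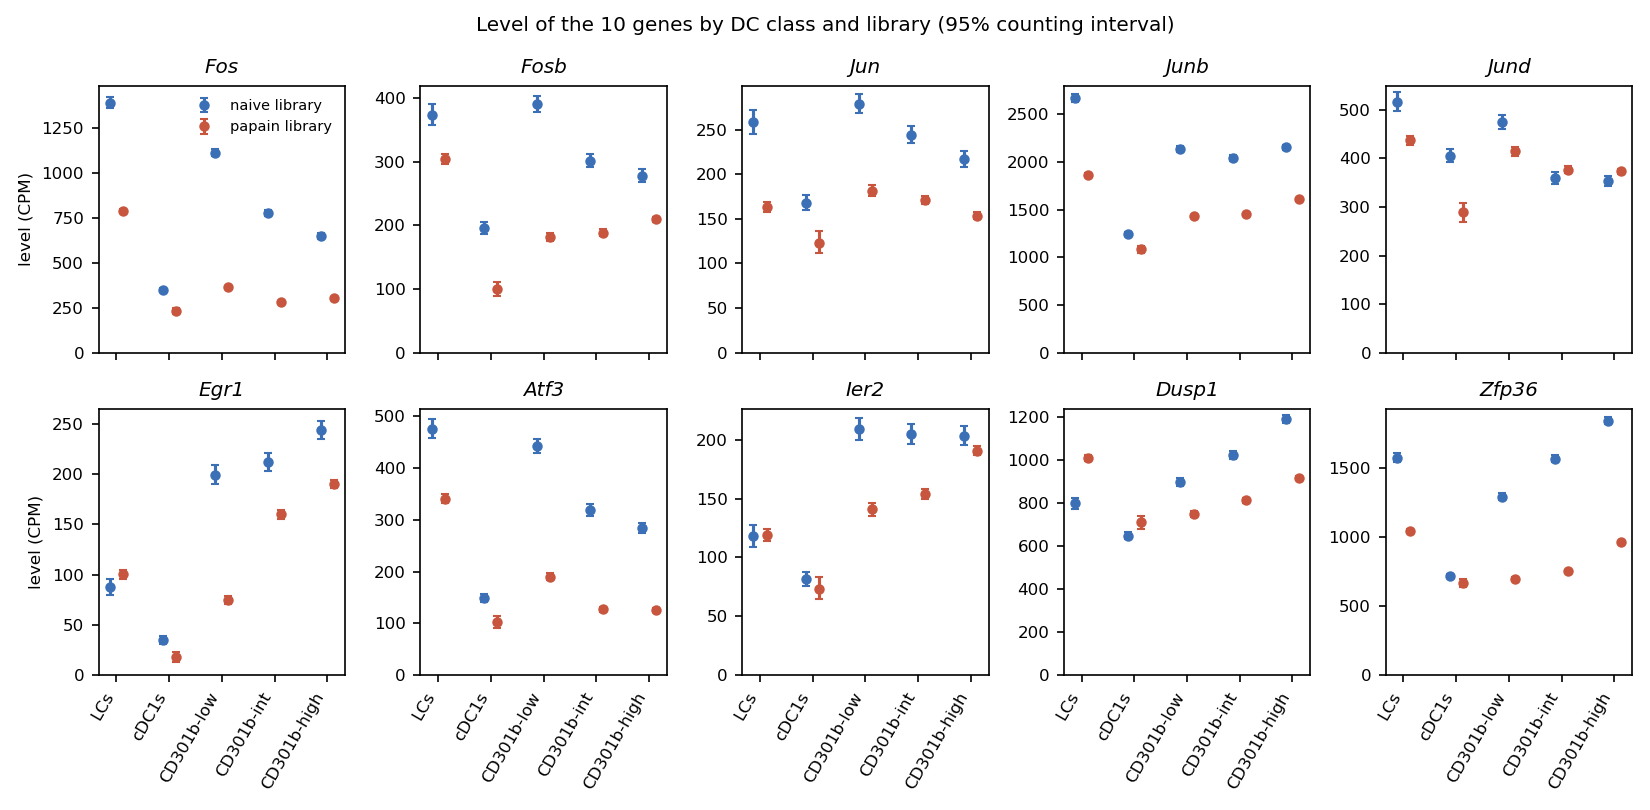
Level of each gene in CPM (vertical axes, each from 0) in the 5 DC classes (horizontal axes), as points for the naïve (blue) and papain (red) library with 95% counting intervals. The red *Fos* points lie below the blue ones in all 5 classes, from 789 against 1394 CPM in LCs to 229 against 349 CPM in cDC1s, and the *Egr1* points lie lowest in cDC1s in both libraries.

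*Fos* was highest in LCs and lowest in cDC1s in both libraries. It was at 1394 CPM (1363 to 1426) in naïve LCs, 1116 (1094 to 1138) in CD301b-low, 779 (762 to 797) in CD301b-int and 649.9 (635 to 665) in CD301b-high cDC2s, and 349 (337 to 361) in cDC1s, with no overlap between the intervals of neighbours in this order. Among papain cells *Fos* was at 789 CPM (776 to 802) in LCs, 365 (356 to 374) in CD301b-low, 306 (301 to 310.4) in CD301b-high and 281 (275 to 287) in CD301b-int cDC2s, and 229 (213 to 247) in cDC1s. It was past 1.5-fold lower with papain in 5 of 5 classes, by a log2 ratio of -0.82 in LCs, -0.61 in cDC1s, -1.61 in CD301b-low, -1.47 in CD301b-int and -1.09 in CD301b-high cDC2s. In cDC1s it was -0.43, short of 1.5-fold, when cells with *Cd3e* or *Trac* were left out. The naïve cDC2s fell in *Fos* with rising CD301b, from 1116 to 649.9 CPM, and the papain cDC2s spanned 281 to 365 CPM with CD301b-int cells lowest. *Fosb* was at 374, 196, 390.5, 302 and 278 CPM in naïve LCs, cDC1s and CD301b-low, int and high cDC2s, and at 305, 99.6, 182, 189 and 209.8 CPM in the papain cells of the same classes. It was past 1.5-fold lower in cDC1s and in CD301b-low and int cDC2s, with log2 ratios of -0.97 (-1.15 to -0.80), -1.10 (-1.17 to -1.03) and -0.68 (-0.74 to -0.61), and had log2 ratios of -0.30 in LCs and -0.41 in CD301b-high cDC2s.

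Of the Jun family, *Jun* was lower with papain in every class, *Junb* was so by less, and *Jund* differed in direction between classes. *Jun*, the partner of FOS in the classical AP-1 dimer, was at 259, 168, 279, 244 and 217 CPM in naïve LCs, cDC1s and CD301b-low, int and high cDC2s, and at 163, 123, 182, 172 and 154 CPM with papain. It was past 1.5-fold lower in LCs, at a log2 ratio of -0.66 (-0.76 to -0.57), and in CD301b-low cDC2s, at -0.62 (-0.69 to -0.54), and between -0.51 and -0.45 in the other classes. *Junb*, known as a brake on JUN activity in many cells, was at 2669 CPM in naïve LCs, 2138 to 2155 CPM at the ends of the CD301b range of cDC2s and 1245 CPM in cDC1s, against 1861, 1430.0 to 1607, and 1081 CPM with papain. All 5 log2 ratios of *Junb* were below 0, from -0.58 in CD301b-low cDC2s to -0.20 in cDC1s, and 0 of 5 passed 1.5-fold. *Jund*, the AP-1 subunit known for steady expression, had log2 ratios of -0.24 (-0.30 to -0.18) in LCs, -0.20 (-0.25 to -0.14) in CD301b-low, 0.07 (0.01 to 0.12) in CD301b-int and 0.08 (0.03 to 0.13) in CD301b-high cDC2s. In cDC1s its log2 ratio was -0.49 (-0.60 to -0.39), from 406 to 289 CPM. Set against the median ratio over abundant genes (10 CPM or more), the *Jund* ratio of CD301b-high cDC2s was -0.01.

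The cDC1 ratios of *Jund* and *Ier2* rested on the naïve cells with T cell mRNA. The 78 naïve cDC1s with a *Cd3e* or *Trac* UMI had 1071 CPM of *Jund* and 213 CPM of *Ier2*, and the other 500 had 283 and 57.4 CPM. Without such cells in either library, the papain over naïve log2 ratio in cDC1s was 0.02 for *Jund* and 0.37 for *Ier2*, in place of -0.49 and -0.15, and the pooled *Jund* ratio over all classes was 0.01 in place of -0.08. The count of genes past 1.5-fold in cDC1s then went from 3 to 1: *Fosb* passed at -0.69, and *Fos* (-0.43) and *Egr1* (-0.28) did not. The same 78 cells had 2064 CPM of *Junb*, against 1094 CPM in the rest.

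*Egr1* differed more between DC classes than any of the other 9 genes. In the naïve library it was at 244 CPM (235 to 253) in CD301b-high, 212 (203 to 221) in CD301b-int and 199.5 (190.5 to 209) in CD301b-low cDC2s, 87.7 (79.9 to 96.0) in LCs and 34.9 (31.2 to 38.8) in cDC1s. The intervals of CD301b-int and low cDC2s overlapped, and those of the other neighbours did not. With papain it was at 191 CPM (187 to 194) in CD301b-high, 160.0 (155 to 165) in CD301b-int, 100.4 (95.9 to 105) in LCs, 74.7 (70.8 to 78.8) in CD301b-low cDC2s and 17.9 (13.5 to 23.3) in cDC1s. The highest class was 7.01-fold above the lowest in the naïve and 10.6-fold in the papain library. CD301b-low cDC2s, close to the other cDC2s in the naïve library, were lower than LCs with papain. The papain over naïve log2 ratio was -1.42 (-1.52 to -1.31) in CD301b-low cDC2s and -0.96 (-1.40 to -0.55) in cDC1s, the 2 classes where it passed 1.5-fold, -0.41 (-0.48 to -0.33) and -0.36 (-0.42 to -0.30) in CD301b-int and high cDC2s, and 0.20 (0.05 to 0.35) in LCs. When cells with *Cd3e* or *Trac* were left out, the cDC1 ratio of *Egr1* was -0.28 and no longer passed.

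*Atf3* was highest in LCs and *Ier2* in cDC2s, in both libraries. *Atf3* was at 476 CPM (457 to 495) in naïve LCs, 443 (429 to 457) in CD301b-low, 319 (308 to 329.6) in CD301b-int and 284 (274 to 294) in CD301b-high cDC2s and 149 (141 to 157) in cDC1s, the same order as *Fos*. With papain it was at 340.4, 190.1, 127, 126 and 103 CPM in these classes, past 1.5-fold lower in the 3 cDC2 classes (log2 ratios -1.22, -1.33 and -1.17) and at -0.48 in LCs and -0.54 in cDC1s. *Ier2* was at 209, 205 and 204 CPM in naïve CD301b-low, int and high cDC2s, with overlapping intervals, at 118 CPM in LCs and 81.6 CPM in cDC1s. With papain it was at 141, 154, 191, 119 and 73.6 CPM. It passed 1.5-fold in 0 of 5 classes, with log2 ratios from -0.57 (-0.66 to -0.48) in CD301b-low cDC2s to 0.01 (-0.12 to 0.14) in LCs.

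Of the genes for the brakes, *Zfp36* was lower with papain and *Dusp1* split by class. *Zfp36* was at 1576, 719, 1294, 1570.2 and 1846 CPM in naïve LCs, cDC1s and CD301b-low, int and high cDC2s, and at 1044, 667, 699.5, 752 and 965 CPM with papain. It passed 1.5-fold in LCs, at a log2 ratio of -0.59 (-0.63 to -0.56), and in CD301b-low, int and high cDC2s, at -0.89 (-0.92 to -0.85), -1.06 (-1.09 to -1.03) and -0.94 (-0.96 to -0.91), and had a log2 ratio of -0.11 (-0.18 to -0.04) in cDC1s. *Dusp1* was higher with papain in LCs, at 798 CPM (774 to 822) and 1009 CPM (995 to 1024), and in cDC1s, at 648 (632 to 665) and 709.5 CPM (680.0 to 739.9). In CD301b-low, int and high cDC2s it was lower, from 896, 1023 and 1189.6 to 748, 811 and 916 CPM. The log2 ratios of *Dusp1*, from -0.38 to 0.34, passed 1.5-fold in 0 of 5 classes.

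**Figure D2:**
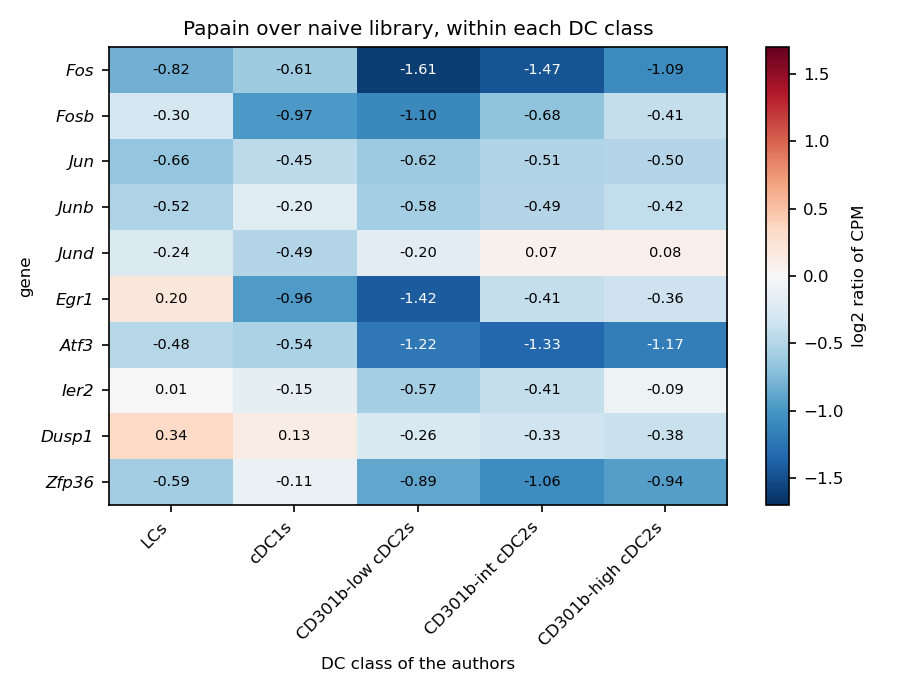
Log2 ratio of the papain over the naïve level (colour and printed value) for each gene (rows) in each DC class (columns). *Fos* is below -0.60 in all 5 columns, while *Egr1* and *Dusp1* are above 0 in LCs.

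Counted by class, 3 of 10 genes were past 1.5-fold in LCs (*Fos*, *Jun*, *Zfp36*), where 23.6% of all genes tested were, 3 in cDC1s (*Fos*, *Fosb*, *Egr1*, of which *Fosb* alone passed without cells that held *Cd3e* or *Trac*; 22.9% of all genes), 6 in CD301b-low (25.2%), 4 in CD301b-int (21.3%) and 3 in CD301b-high cDC2s (18.6%). All of these were lower with papain, where the share of all genes past 1.5-fold lower was 9.21% in LCs, 12.6% in cDC1s, and 14.2%, 10.5% and 8.39% in CD301b-low, int and high cDC2s. The shares past 1.5-fold higher, where 0 of the 10 genes were, were 14.4% in LCs, 10.3% in cDC1s, and 11%, 10.7% and 10.2% in CD301b-low, int and high cDC2s. The LC count fell to 1 (*Fos*) when the deepest 5% of cells were left out.

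Classes of the same library were compared as well. CD301b-high cDC2s had less *Fos* (log2 ratio -0.78) and *Atf3* (-0.64) than CD301b-low cDC2s in the naïve library, 2 of 10 genes past 1.5-fold, both lower, beside 14.5% of all genes (9.53% lower, 5.02% higher). They had more *Zfp36* (0.51), *Dusp1* (0.41) and *Egr1* (0.29), short of that fold. In the papain library the same comparison gave 1.35 for *Egr1* and -0.60 for *Atf3*, again 2 of 10 genes but 1 in each direction, beside 8.27% of all genes (3.99% lower, 4.28% higher). LCs had more *Fos* (0.74) and less *Egr1* (-1.33) and *Ier2* (-0.80) than all cDC2s in the naïve library, 3 of 10 genes beside 25.3% (11.6% higher, 13.8% lower). In the papain library LCs had more *Fos* (1.35), *Atf3* (1.30) and *Fosb* (0.62) and less *Egr1* (-0.67), 4 of 10 genes beside 12.8% (6.8% higher, 6.02% lower). cDC1s stood below cDC2s in most genes: 8 of 10 were past 1.5-fold lower in the naïve library, all but *Jun* and *Jund*, beside 17.2% of all genes that were lower, 11.9% higher and 29.1% in either direction. The log2 ratios ran from -2.66 for *Egr1* to -0.69 for *Dusp1*, and were -0.54 for *Jun* and 0.05 for *Jund*. With the cells that held *Cd3e* or *Trac* left out, the *Jund* ratio was -0.44. In the papain library *Egr1* (-3.16), *Ier2* (-1.21) and *Fosb* (-0.99) passed 1.5-fold, 3 of 10 genes, all lower, beside 26.4% (16.7% lower, 9.66% higher). Levels of the 10 genes thus did not follow 1 order of the classes: *Fos* and *Atf3* were highest in LCs, *Egr1* in CD301b-high cDC2s, and cDC1s were lowest for 9 of 10 genes in the naïve library (all but *Jund*) and for 10 of 10 in the papain library. The share of all genes that are lowest in cDC1s was not counted. Over all genes tested, the median log2 ratio of cDC1s over cDC2s was -0.08 in the naïve and -0.12 in the papain library.

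The authors also split the cDC2s by mRNA, into 7 clusters of naïve (1.1 to 1.7) and 9 of papain cells (2.1 to 2.9). Since the clusters were made from expression, the values describe them and support nothing further. The share of all genes that are highest or lowest in a cluster was not counted. Cluster 1.5 (246 cells, 58.1% CD301b-low) had the highest naïve level of *Fos* (1642 CPM), *Fosb* (673 CPM), *Jun* (401 CPM), *Egr1* (511 CPM), *Atf3* (757 CPM) and *Ier2* (355 CPM). Its *Zfp36* (1317 CPM) and *Dusp1* (1086 CPM) were not raised over all naïve cDC2s (1589.6 and 1046 CPM) in the same way. Cluster 1.6 (55 cells) was the reverse, with the lowest *Fos* (348 CPM) and *Atf3* (115 CPM) and the highest *Dusp1* (1829.9 CPM) and *Junb* (2675 CPM) of the naïve clusters. It also had the lowest depth, a median of 5929 UMIs against 9893 to 20541 in the others. Cluster 1.7 (50 cells), where 56.0% of cells held a *Cd3e* or *Trac* UMI, had the highest *Jund* (994 CPM) and the lowest *Dusp1* (619 CPM) and *Zfp36* (939.7 CPM).

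In the papain library, cluster 2.9 (216 cells, 69.0% CD301b-low) had the highest *Fos* (878 CPM), *Fosb* (427 CPM), *Atf3* (325 CPM) and *Junb* (2102 CPM), and its *Egr1* was 115 CPM, below the 160.0 CPM of all papain cDC2s. Cluster 2.6 (430 cells) was lowest for 9 of the 10 genes, and how many of all genes are lowest there was not counted. It had 89.1 CPM of *Fos*, 459 CPM of *Junb*, 287 CPM of *Zfp36* and 7.24 CPM (5.10 to 9.99) of *Egr1*, and the exception was *Jun*, at 133 CPM. Its median share of mitochondrial UMIs was 4.75%, against 2.18% to 3.36% in the other papain clusters, and its median depth 11729 UMIs. Cluster 2.8 (316 cells) was high in *Egr1* (266 CPM), *Dusp1* (1619 CPM) and *Zfp36* (1170.3 CPM), and like 1.6 it had the lowest depth of its library (median 7249 UMIs). *Egr1* split the papain clusters most, with 34.9 CPM in 2.4, 12.1 CPM in 2.7 and 7.24 CPM in 2.6 against 144 to 266 CPM in 2.1, 2.2, 2.3, 2.5 and 2.8.

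**Figure D3:**
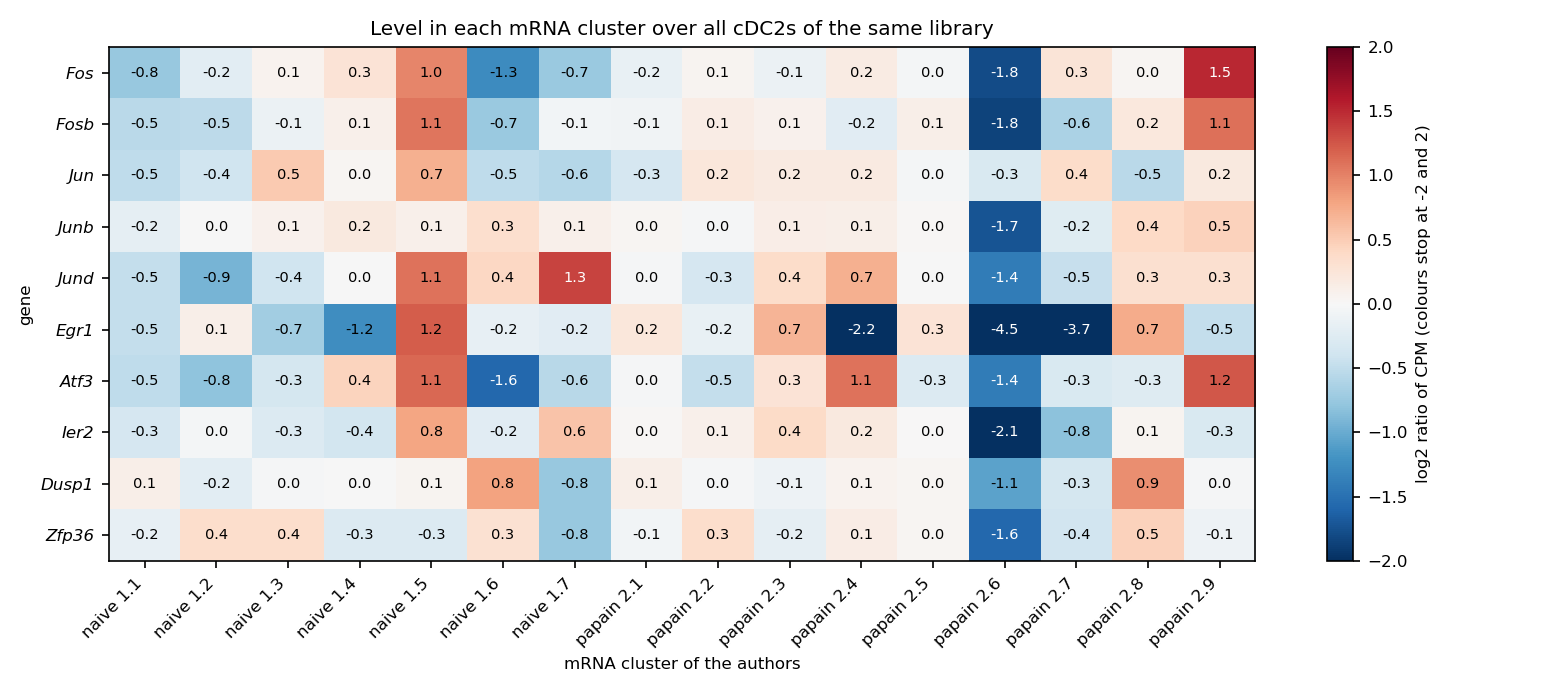
Log2 ratio of the level in each mRNA cluster of cDC2s over the level in all cDC2s of the same library (colour and printed value, with colours that stop at -2 and 2), genes in rows and clusters in columns. Cluster 1.5 is raised for *Fos*, *Fosb*, *Jun*, *Jund*, *Egr1*, *Atf3* and *Ier2* and below 0 for *Zfp36*, and cluster 2.6 is below 0 for all 10 genes.

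Within a library, some of the genes were carried by nearly all cells and others by few. *Egr1* was found in 28.7% (27.1 to 30.4%) of naïve and 33.8% (32.8 to 34.9%) of papain cells with a class, and the 10% of cells with the highest values held 80.7% and 67.8% of its summed level. *Junb* was the most even, with 25.4% and 24.0% of its level in the top 10% of cells. *Fos* lay between, found in 79.9% (78.4 to 81.3%) and 71.0% (70.0 to 72.1%) of cells, with 44.6% and 49.7% of its level in the top 10%. A naïve LC held a median of 1192 CPM of *Fos*, with 49.7 CPM at the 10th and 3252 CPM at the 90th percentile of cells, and a papain CD301b-int cDC2 a median of 112 and a 90th percentile of 793 CPM. When cells were thinned to a common 8392 UMIs, leaving out 378 naïve and 657 papain cells that were shallower, *Egr1* was found in 25% and 29.6% and *Fos* in 75.8% and 62.7% of cells. More papain than naïve cells thus held an *Egr1* UMI, while its summed level was lower (166 and 147 CPM), and no order is read from the share. The libraries also differed in class makeup, whose part in these shares was not tested. The cDC1s, lowest in *Egr1*, were 578 of 3042 naïve and 235 of 7306 papain cells with a class. No cell type without these genes was at hand to measure free RNA. The cells without a class that held *Cd3e* or *Trac* had an *Atf3* UMI in 11.8% of naïve and 4.98% of papain cells (17.9% and 11.1% thinned) at a median of 7626 and 6980 UMIs, against 68.0% and 61.8% (61.6% and 49.8% thinned) of cells with a class at 13979.5 and 14945 UMIs. Of the cells without a class that held *Cd3e* or *Trac*, 151 of 237 naïve and 178 of 241 papain cells were shallower than 8392 UMIs. The thinned shares leave them out and so cover other cells than the unthinned ones.

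At the same thinned depth, a cell held a median of 8 of the 10 genes in LCs of both libraries, of 8 in each naïve cDC2 class and of 6, 7 and 7 in papain CD301b-low, int and high cDC2s, and of 6 in naïve and 5 in papain cDC1s. All 10 genes were found in 11.4%, 10.7% and 9.51% of naïve CD301b-low, int and high cDC2s and in 2.49%, 5.32% and 5.95% of the papain ones, and in 5.43% of naïve and 6.23% of papain LCs. The variance of this number was 1.61 to 2.46 times the sum of the variances of the single genes, so that genes were found in the same cells more than they would be if each were spread over cells on its own.

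**Figure D4:**
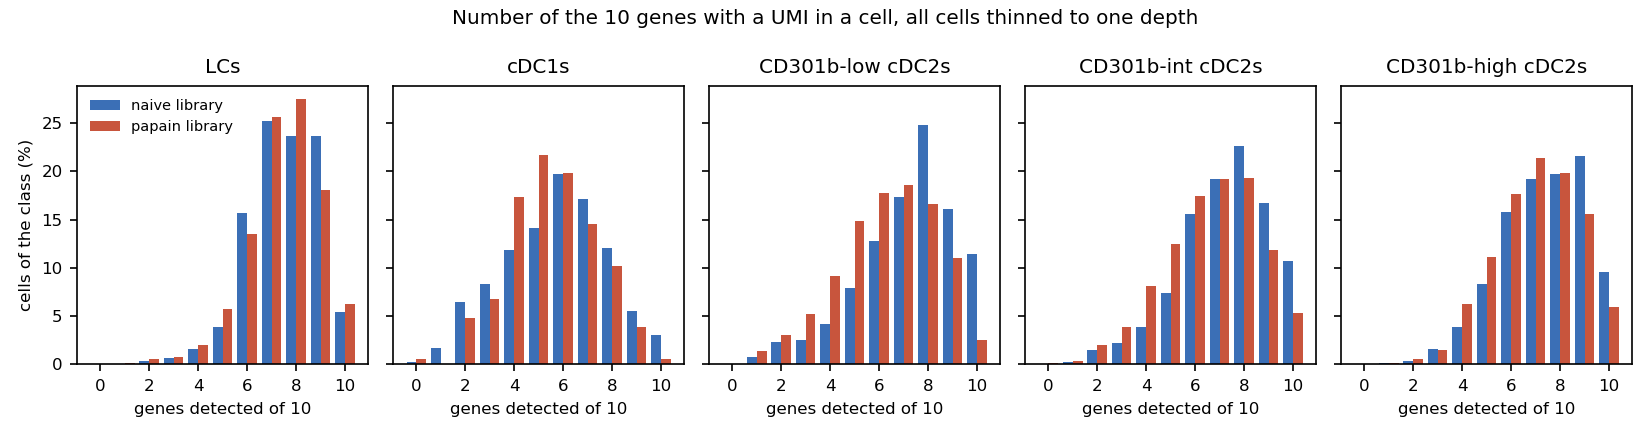
Share of the cells of a class (vertical axis, %) by how many of the 10 genes had at least 1 UMI (horizontal axis), all cells thinned to 8392 UMIs, for the naïve (blue) and papain (red) library. cDC1s peak at 6 genes in the naïve and 5 in the papain library, and the cells with all 10 genes are fewer with papain in the 3 cDC2 classes and in cDC1s.

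In single cells the levels of the 10 genes varied together. Pearson's r of log2(1 + UMIs per 10000) was taken within each class and library for the 45 pairs of the 10 genes. The median r was 0.225 to 0.351 over the 10 groups of cells. Beside the pairs of the 10 genes stand 314028 pairs of 793 genes at least as abundant as the lowest of the 10, with a median r of 0.00717 to 0.0338. In the naïve library an r of at least 0.2 was reached by 28 of 45 pairs in LCs (6.63% of all pairs), 34 in cDC1s (15.2%), 42 in CD301b-low (11.7%), 42 in CD301b-int (10.1%) and 31 in CD301b-high cDC2s (8.7%). In the papain library it was reached by 33 in LCs (13.8%), 27 in cDC1s (9.36%), 33 in CD301b-low (8.7%), 34 in CD301b-int (7.53%) and 28 in CD301b-high cDC2s (7.23%). The pairs share cells, depth and base composition, and r is given as a description over 235 to 2893 cells a group. The count of pairs stayed within 1.5 times with Spearman's rho, at a single depth, with depth and detected genes taken out, and when cells with *Cd3e* or *Trac* or the deepest 5% of cells were left out. The mean of the 10 genes had an r of -0.0798 to 0.218 with the log of the UMIs per cell and of -0.169 to 0.0773 with the mitochondrial share.

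The closest pairs lay among the AP-1 genes *Fos*, *Fosb* and *Junb* and the brakes. The mean r over the 10 groups, with the lowest and highest group, was 0.538 (0.469 to 0.625) for *Junb* and *Zfp36*, 0.519 (0.371 to 0.722) for *Dusp1* and *Zfp36*, 0.499 (0.383 to 0.605) for *Fos* and *Fosb*, 0.497 (0.414 to 0.566) for *Fos* and *Zfp36*, and 0.461 (0.333 to 0.576) for *Fos* and *Junb*. These are the genes whose promoter windows are printed above. *Egr1* stood apart, with a mean r of 0.177 over its 9 partners, the lowest of the 10 genes. It had a mean r of 0.0530 (-0.0613 to 0.177) with *Dusp1*, 0.102 (-0.0190 to 0.234) with *Atf3*, 0.111 (-0.0501 to 0.248) with *Zfp36* and 0.132 (-0.0503 to 0.333) with *Fos*, and its closest partner was *Ier2*, at 0.363 (0.177 to 0.468). *Jun* had the next lowest mean, 0.215, with 0.153 (0.0762 to 0.218) for *Jun* and *Junb*.

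**Figure D5:**
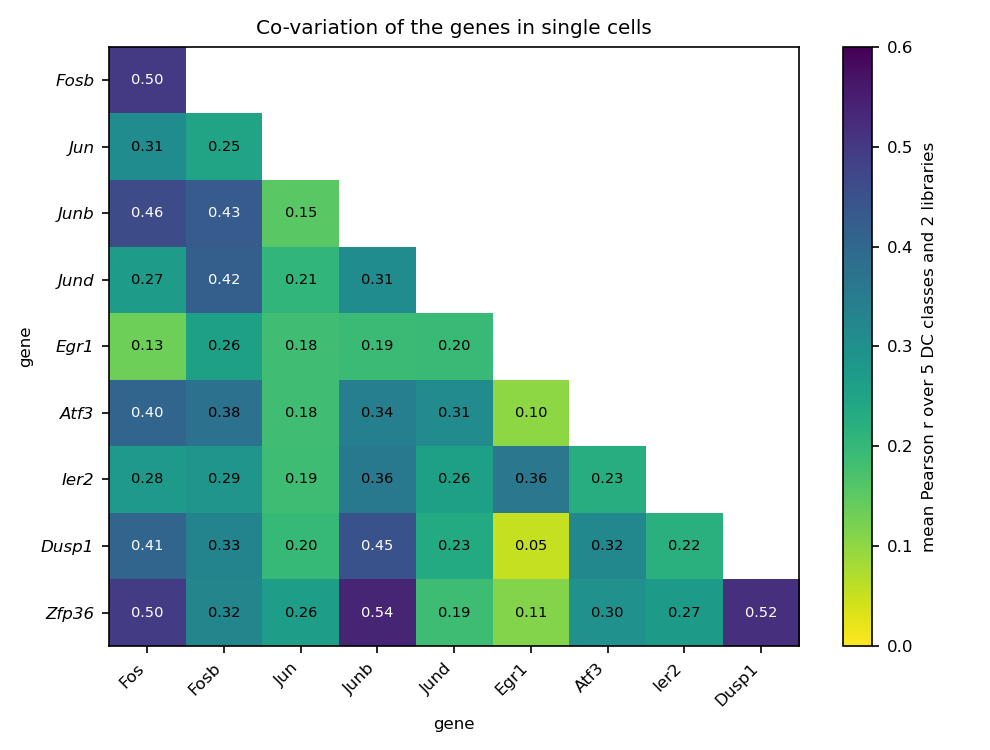
Mean Pearson r over the 5 DC classes and 2 libraries for each pair of genes (colour and printed value; both axes list the genes). *Junb* with *Zfp36* (0.54) and *Dusp1* with *Zfp36* (0.52) are the highest, and the squares that join *Egr1* to *Dusp1*, *Atf3*, *Zfp36* and *Fos* are the lowest.

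The genes most like the 10 were taken by the mean, over the same 10 groups of cells, of their r with the mean of the 10 genes, among 7434 others found in at least 10% of cells of each library. The 10 highest were *Btg2* (0.488), an antiproliferative gene, the kinase gene *Pim1* (0.469), the transcription factor genes *Klf4* (0.448) and *Klf6* (0.407), *Ier5* (0.392), *Pnrc1* (0.389), *Ppp1r15a* (0.382), *Ifrd1* (0.378), *Rgs1* (0.374), a regulator of G protein signalling, and the nuclear receptor gene *Nr4a2* (0.371). Each was above 0 in 10 of 10 groups. The 5 lowest were *Fscn1* (-0.245), which encodes the actin bundler of mature DCs, *Socs2* (-0.238), *Lsp1* (-0.209), *Psmb8* (-0.208), an immunoproteasome gene, and the chemokine gene *Ccl22* (-0.208), each below 0 in 10 of 10 groups. The other migratory DC markers did not go with *Fscn1*: *Cd83* was at 0.357, *Ccr7* at 0.289 and *H2-Ab1* at 0.0710. A mean r of at least 0.2 was reached by 80 of the 7434 genes (1.08%), and by 18 of 27 genes of a list of other early response genes. Of the genes for kinases and factors upstream, such as *Mapk3* (-0.0574), *Srf* (0.0274), *Elk4* (-0.0398) and *Creb1* (0.00751), 0 of 23 reached it, the highest being *Crem* at 0.195. Of the heat shock genes 0 of 10 did, with *Hspa1a* at 0.136, and of the other dual-specificity phosphatase genes 2 of 6 did, *Dusp5* (0.360) and *Dusp2* (0.271). Of 7 mRNAs known as targets of ZFP36, 2 reached it, *Ier3* (0.221) and *Ptgs2* (0.205).

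The same lists were set beside the 10 genes for papain over naïve, over all cells with a class. Of the other early response genes, 30 of the 32 listed reached 10 CPM in either library, and 12 of them were past 1.5-fold lower and 0 higher, with a median log2 ratio of -0.37. Beside these counts and those below, unless a class is named, stand the 8.30% lower and 7.96% higher, with a median of 0.06, over all genes tested. The lowest were *Egr3* (31.1 to 4.05 CPM, log2 ratio -2.94), *Egr2* (20.7 to 2.96 CPM, -2.81), *Ier5l* (-2.01) and *Zfp36l2* (-1.87), so that 2 relatives of *Egr1* were lower by more than *Egr1* itself. In LCs 2 of 28 early response genes were higher and 7 lower, beside 14.4% and 9.21% of all genes. In cDC1s 2 of 29 were higher and 12 lower, beside 10.3% and 12.6%. Of the mRNAs known as targets of ZFP36, 8 of 12 were lower and 1 higher, with a median of -1.37. Among them the chemokine genes *Ccl4* (75.2 to 3.89 CPM, -4.27) and *Ccl3* (-2.50), *Vegfa* (-2.40) and *Plk3* (-2.37) were lowest, and *Cxcl1* (175 to 394 CPM, 1.17) was the higher one. In LCs this list had 2 of 8 higher and 2 of 8 lower, beside 14.4% and 9.21% of all genes. Of the dual-specificity phosphatase genes, *Dusp14* was higher (45.2 to 128 CPM) and *Dusp10* lower (-0.73) among 7. In LCs 3 of 6 genes of this list were higher and 0 lower, beside 14.4% and 9.21% of all genes. In cDC1s 4 of 7 were higher and 1 lower, beside 10.3% and 12.6%. Of the upstream kinases and factors, *Jdp2*, which encodes a repressor of AP-1 (12.3 to 25.3 CPM, 1.04), and *Mapk3*, the gene of ERK1 (0.66), were higher among 25, and *Crem* (-1.27) and *Mapk14*, the gene of p38 alpha (-1.17), were among those that were lower. Of the 10 heat shock genes, *Hspa1b* (-0.97) and *Hspa1a* (-0.91) were lower and 0 higher, with a median of -0.31. The members of these lists were not tested against the 10 genes.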

How the data were processed

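The authors processed the reads with Cell Ranger 3.0.1 and Partek on mouse build mm10, per the submitters' processing notes. Expression was deposited by the authors as log2 of CPM plus 1 in each cell. The values were whole multiples of 1 UMI (100% of values of up to 50 UMIs, within 0.02 UMIs), and UMIs were recovered from them. The listed genes summed to 0.810 to 0.979 of the 1000000, so totals were taken from the scaling. The deposited number of expressed genes per cell is in counts and equalled the genes above 0 in each cell. Antibody values, as deposited, use a natural log (ln) scale. Depth was 3637 to 57378 UMIs per naïve cell and 2682 to 57150 per papain cell. Cells without a class (429 naïve, 290 papain) entered no class value. No doublets were removed, no doublet caller was run, and the 5% of cells with most UMIs were left out as an alternative. Intervals were exact Poisson for CPM, exact Clopper-Pearson for shares and exact conditional binomial for ratios (95%). Calls of 1.5-fold needed 10 CPM or more in the higher of both groups. Counts under 3 UMIs were set to 3 in ratios. Genes outside the 10 were named as the 10 highest and 5 lowest by mean r, and as the 4 largest ratios per direction past 1.5-fold of each list, and any others, apart from cell markers, after their values were seen. Neutrophil markers were not analysed here, and 1 gene that the rule names is not reported here. The 10 genes and all lists were chosen with earlier results of these data known. Python 3.11.15, numpy 2.4.6, scipy 1.17.1 and pandas 2.3.3 were used, and the scripts were tested on simulated data.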

Additional observations from a re-analysis of the deposited data

Results flagged for a closer look

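Of the 10 genes, 3 differed between the libraries in opposite directions in different DC classes. The differences between classes were not tested, since each class has 1 library per condition. The directions rest on intervals that cover counting error only, and how many of all genes differ in this way was not counted. *Dusp1* was higher with papain in LCs and cDC1s and lower in the cDC2s. Its papain over naïve log2 ratio in LCs lay above that in CD301b-low, int and high cDC2s by 0.60, 0.67 and 0.72, and its ratio in cDC1s by 0.39, 0.46 and 0.51. *Egr1* was higher with papain in LCs alone, and its log2 ratio there lay above that in cDC1s by 1.16 and above that in CD301b-low, int and high cDC2s by 1.61, 0.60 and 0.55. *Jund* was slightly higher in CD301b-int and high cDC2s and lower in the other 3 classes. Set against the median ratio over genes of 10 CPM or more, its ratio in CD301b-high cDC2s was -0.01. The log2 ratio in CD301b-int cDC2s lay above that in LCs, cDC1s and CD301b-low cDC2s by 0.31, 0.56 and 0.26, and that in CD301b-high cDC2s by 0.32, 0.57 and 0.28. The *Jund* values against cDC1s rest on the naïve cDC1s with a *Cd3e* or *Trac* UMI, without which the cDC1 ratio is 0.02 in place of -0.49. Without those cells *Ier2* also had opposite directions, at 0.37 in cDC1s against -0.56, -0.38 and -0.08 in CD301b-low, int and high cDC2s, and its cDC1 ratio with them is -0.15. The cDC1 ratio of *Egr1* without them is -0.28, and the difference from LCs is then smaller.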

How the results depend on the processing

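Over 156 results and 1167 alternative values, 760 of 970 log2 ratios of single genes stayed within their counting interval and 210 moved by more, and no value past 1.5-fold changed direction. A fold of 2 in place of 1.5 left 1 gene over all classes, 0 in LCs and 0 in cDC1s for papain over naïve, 0 for CD301b-high over low cDC2s in the naïve and 1 in the papain library, 1 for LCs over cDC2s in the naïve and 2 in the papain library, and 5 for naïve cDC1s over cDC2s. For papain over naïve it left *Fos*, *Fosb*, *Egr1* and *Atf3* in CD301b-low cDC2s, all lower. It left *Fos*, *Atf3* and *Zfp36* in CD301b-int and *Fos* and *Atf3* in CD301b-high cDC2s, all lower. For papain cDC1s over cDC2s, *Egr1* and *Ier2* were lower past a fold of 2. The share of all genes past it was then 5.74% over all classes, 7.07% in LCs, 8.04% in cDC1s, 9.19%, 7.28% and 6.05% in CD301b-low, int and high cDC2s, 4.39% and 2.34% for CD301b-high over low, 10.6% and 4.82% for LCs over cDC2s, and 12.5% and 10.9% for cDC1s over cDC2s, each naïve first. With no filter on CPM the share past 1.5-fold was 29.8% over all classes, 37.4% in LCs, 37.7% in cDC1s, 35.0% and 32.4% in CD301b-int and high cDC2s, 32.3% and 24.3% for CD301b-high over low, 41.3% and 28.2% for LCs over cDC2s, and 48.3% for papain cDC1s over cDC2s, since genes of few UMIs enter. The LC count for papain over naïve was 1 with the mean over cells and 1 without the deepest 5% of cells, and the cDC1 count was 1 when cells with *Cd3e* or *Trac* were left out. The count for CD301b-high over low was 1 in the naïve library relative to the median ratio, and 1 in the papain library with a pseudocount of 10 CPM and 1 at a single depth. The cause of these changes was not tested beyond what each alternative leaves out. Of ratios short of 1.5-fold, those of *Jund*, *Ier2*, *Junb* and *Jun* changed sign in 12 alternative values. No paired analysis was possible because no replicate number is in the labels, and with 1 library per condition no replicate could be left out. Variation between mice and libraries is not measured by any of these values.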

Other observations

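The cells that had expression values but no antibody class and held a *Cd3e* or *Trac* UMI (237 naïve and 241 papain cells) showed another balance of the 10 genes than the DCs. They had 966 CPM (926 to 1007) of *Jund* in the naïve and 939.6 CPM (896 to 985) in the papain library, and 281 (260.1 to 304) and 252 CPM (230.0 to 276) of *Ier2*, above every DC class of either library. *Atf3*, at 66.3 (56.3 to 77.7) and 23.0 CPM (16.6 to 31.0), *Dusp1*, at 326 and 224 CPM, and *Zfp36*, at 329.5 and 149 CPM, were below every DC class of the same library. *Junb* was closer between both kinds of cells, at 1843 and 1425 CPM beside 1997 and 1567 CPM.

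In naïve cDC1s the antibody for CD172a, which marks cDC2s, had an r of at least 0.2 with 7 of the 10 genes over 578 cells. How many of all genes have such an r with an antibody was not measured. The counts in this paragraph therefore describe the 10 genes and do not set them apart from other genes. The r was 0.550 with *Ier2*, 0.512 with *Jund*, 0.372 with *Junb*, 0.357 with *Fosb*, 0.312 with *Atf3*, 0.295 with *Fos* and 0.256 with *Egr1*. Over the 500 cells without a *Cd3e* or *Trac* UMI, a split chosen after the first values were seen, 2 of 10 reached it, *Ier2* at 0.215 and *Atf3* at 0.209, and *Jund* was at 0.0564. In papain cDC1s (235 cells) the values were 0.125 for *Ier2* and -0.165 for *Jund*. The MHCII antibody had an r of -0.2 or lower with 7 of 10 genes in naïve cDC1s and with 6 of 10 without those cells. Its r was nearer 0 without them for *Ier2* (-0.380 to -0.202), *Jund* (-0.352 to -0.146), *Junb* (-0.328 to -0.197), *Fosb* (-0.325 to -0.216) and *Fos* (-0.289 to -0.214), and farther from 0 for *Dusp1* (-0.265 to -0.326) and *Zfp36* (-0.194 to -0.311). Such values of the MHCII antibody were not confined to naïve cDC1s. In naïve CD301b-low cDC2s its r was -0.257 with *Ier2*, -0.232 with *Jund*, -0.229 with *Fosb*, -0.227 with *Egr1* and -0.224 with *Fos*, and 0.0727 with *Zfp36*. In papain cDC1s its lowest r was -0.183, with *Ier2*. The CD301b antibody had an r between -0.189 (*Jund*) and 0.176 (*Zfp36*), both in naïve CD301b-low cDC2s, with the 10 genes within the cDC2 classes.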
